A study of Homo sapiens with 4 samples.

Results

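The genes described here are 10 feedback regulators and targets of MAP kinase signalling, taken by name from the 43622 genes of the deposited expression table: the MAPK phosphatases DUSP1, DUSP4, DUSP5, DUSP6 and DUSP10, the Sprouty genes SPRY2 and SPRY4, the related genes SPRED1 and SPRED2, and the transcription factor gene EGR1. All 10 were found and all 10 passed the filter on low values, EGR1 only through the libraries treated with MLN4924. RNA-seq was carried out on PC3, an established human prostate adenocarcinoma cell line, and on PC3-shp14ARF, a stable line made from it by retroviral transfer of a short hairpin RNA against p14ARF and selected with Hygromycin B. PC3 cells received DMSO (Ctrl) or 1 µM MLN4924 (MLN), and PC3-shp14ARF cells received DMSO (shARF) or 1 µM MLN4924 (Both), for 3 days. The sample labels and protocol give this hairpin and the micromolar dose, whereas the design text of the series speaks of a knockout and a millimolar dose. MLN4924 inhibits NEDDylation, the conjugation of NEDD8 that activates cullin-RING ubiquitin ligases. Each condition had 3 libraries, and the sources used here do not say whether these were separate cultures, so the errors and p-values below measure the spread between libraries, which may be technical. No control hairpin is named for the Ctrl and MLN cells, so p14ARF depletion cannot be told apart from retroviral transfer and selection. The question was which parts of the response to MLN4924 depend on p14ARF.

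Growth factor receptors activate RAS, which acts through RAF and MEK on the kinases ERK1 and ERK2. Active ERK switches on immediate early genes such as EGR1, a zinc finger factor, and also the genes of its own brakes. DUSP phosphatases remove the phosphates that activate MAP kinases: DUSP5 (nuclear) and DUSP6 (cytoplasmic) act mainly on ERK, DUSP1 and DUSP4 are nuclear and act on ERK, JNK and p38, and DUSP10 acts mainly on JNK and p38. Sprouty proteins restrain signalling between receptors and RAF, and SPRED proteins bring neurofibromin, which inactivates RAS, to the membrane.

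EGR1 and DUSP1, the genes with the largest responses to MLN4924 among the 10, and DUSP6, whose response differed between the cell lines, are shown here by their promoters, from 250 bases before to 50 bases after the RefSeq start on GRCh38.p14. Capitals mark matches to any of 5 motifs searched on both strands: the CArG box, which serum response factor binds, the cAMP response element TGACGTCA, the AP-1 motif TGANTCA, the ETS core CCGGAA and the EGR motif GCGTGGGCG. The promoter of EGR1 lies at chr5:138465229-138465528 on the plus strand, that of DUSP1 at chr5:172771146-172771445 on the minus strand and that of DUSP6 at chr12:89352452-89352751 on the minus strand.
EGR1: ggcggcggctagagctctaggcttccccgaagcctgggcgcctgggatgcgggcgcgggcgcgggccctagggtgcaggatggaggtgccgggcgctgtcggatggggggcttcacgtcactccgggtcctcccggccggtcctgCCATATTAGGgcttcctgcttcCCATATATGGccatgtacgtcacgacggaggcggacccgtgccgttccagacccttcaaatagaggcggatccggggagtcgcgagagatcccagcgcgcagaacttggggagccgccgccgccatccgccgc
DUSP1: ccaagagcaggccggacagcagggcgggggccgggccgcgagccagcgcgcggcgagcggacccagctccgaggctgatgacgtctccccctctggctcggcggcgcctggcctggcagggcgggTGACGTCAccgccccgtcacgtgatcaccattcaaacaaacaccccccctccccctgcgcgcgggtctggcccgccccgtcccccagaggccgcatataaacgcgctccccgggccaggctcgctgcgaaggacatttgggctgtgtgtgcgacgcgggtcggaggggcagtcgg
DUSP6: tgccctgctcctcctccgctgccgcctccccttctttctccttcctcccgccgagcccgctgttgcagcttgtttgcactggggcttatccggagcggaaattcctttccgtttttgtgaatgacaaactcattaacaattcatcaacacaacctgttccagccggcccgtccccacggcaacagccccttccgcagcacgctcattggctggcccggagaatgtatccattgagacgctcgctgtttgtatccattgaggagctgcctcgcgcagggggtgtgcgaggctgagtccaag
EGR1 held 2 CArG boxes, which begin 105 and 83 bases before the start and do not overlap, and 1.29% of the 35116 promoters of this length held one. DUSP1 held TGACGTCA 125 bases before the start, a motif found in 1.85% of promoters. None of the 5 motifs was found in this window of DUSP6. SPRY2, with 3 promoter entries, held a single CCGGAA (17.2% of promoters), and SPRED2, with 2 entries, held TGANTCA (7.71%). GCGTGGGCG, found in 0.795% of promoters, was not found in any of the members with an entry. The shares are per promoter, and DUSP10 also had 2 entries, so these genes had more windows than the others. RefSeq promoters were at hand for 8 of the 10 genes, and the others are DUSP4 and DUSP5. In the GENCODE annotation of GRCh38, EGR1 spans 138465479 to 138469303 on chromosome 5 with 2 exons, DUSP1 spans 172768096 to 172771195 on chromosome 5 with 4 exons, and DUSP6 spans 89347235 to 89352501 on chromosome 12 with 3 exons.

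Expression was deposited as TPM, a length-corrected share of transcripts that sets every library to the same total, so depth is not known from these values and a value is a share of the RNA, not an amount per cell. Between 14055 and 14798 genes reached 1 TPM per library, and every library correlated more closely with its own condition (lowest r = 0.982 across genes) than with any other (highest r = 0.958). CDKN2A, the gene of p14ARF, was at 183 ± 6.49 TPM in Ctrl and 118 ± 16.4 in MLN, against 59.3 ± 1.47 in shARF and 47.5 ± 6.40 in Both (SD of 3 libraries here and below). These values are per gene and include p16INK4a transcripts. All 5 epithelial markers examined had a mean above 1 TPM in every condition, and their summed level was 907 to 1004 TPM in Ctrl and 439 to 504 in MLN, and 1138 to 1280 in shARF and 433 to 449.9 in Both. KLK3, a prostate luminal marker, was listed at 0 in all 12 libraries. The 7 leukocyte, endothelial and fibroblast markers summed to 18.2 to 20.7 TPM in Ctrl and 18.1 to 20.8 in MLN, and to 5.48 to 6.71 in shARF and 6.20 to 7.04 in Both. Within that list PECAM1 fell from 11.7 ± 0.770 to 0.579 ± 0.113 TPM (adjusted p = 1.02e-05, limma) and COL1A1 rose from 7.27 ± 0.856 to 18.2 ± 1.37 TPM (adjusted p = 0.000124) in MLN vs Ctrl. Mitochondrially encoded genes took 7.85% to 10.9% of the total in Ctrl and 8.43% to 12.9% in MLN, which overlap, and 6.04% to 8.03% in shARF and 10.2% to 13.2% in Both, which do not. The part of these shifts in the results below was not tested.

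After MLN4924 in PC3 cells, EGR1 and DUSP1 rose from low levels, DUSP10 doubled approximately and DUSP5 rose slightly, while DUSP4, SPRY2, SPRY4 and SPRED1 fell and DUSP6 fell slightly. In MLN vs Ctrl, 9 of the 10 genes passed an adjusted p of 0.05 (limma, over the 19932 genes tested), 4 higher and 5 lower. The higher ones include EGR1, which passed the filter on low values only through the treated libraries, so its direction was fixed by the filter. In the same comparison 61.6% of all genes passed, 32.2% higher and 29.4% lower. A fold cutoff of 2 on the log2 scale, the one used in the study, was passed by EGR1 and DUSP1 and by 9.43% of all genes. In the PC3-shp14ARF line the same test of the drug (Both vs shARF) was passed by all 10, 5 higher and 5 lower, where 61.0% of all genes passed, 28.3% higher and 32.8% lower. DUSP4 passed only narrowly, and the count was 9 with any library left out. In this line the same fold cutoff was again passed by EGR1 and DUSP1 and by 9.19% of all genes. These shares of all genes are large, so passing the test does not by itself set these genes apart. The limit from the filter holds for each pass of EGR1 here, at the test and at the fold cutoff, in either line. In bulk RNA, a change in the share of cells that express a gene cannot be told apart from a change in its level per cell.

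DUSP1, which encodes the phosphatase MKP-1, was at 12.9, 13.8 and 15.0 TPM in the Ctrl libraries and at 367, 397 and 409.6 TPM in the MLN libraries. In PC3-shp14ARF cells it was at 13.9, 14.1 and 17.7 TPM with DMSO and at 209.7, 211 and 218 TPM with MLN4924. No treated library came near an untreated one, and the Both libraries lay below all MLN libraries. DUSP1 thus rose 28.0-fold in PC3 cells (4.81 on the log2 scale with an SE of 0.073, adjusted p = 1.11e-06) and 14.0-fold in the PC3-shp14ARF line (3.81 with an SE of 0.099, adjusted p = 2.58e-06). The interaction, which is the response in PC3-shp14ARF minus that in PC3 cells fitted over all 12 libraries, was −0.9998 for DUSP1 (adjusted p = 0.000141).

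DUSP10, the phosphatase MKP-5, was at 7.09, 7.19 and 7.60 TPM in Ctrl and at 14.0, 14.6 and 14.8 TPM in MLN. It was at 2.29, 2.51 and 2.70 TPM in shARF and at 4.91, 5.63 and 5.65 TPM in Both. The 4 conditions did not overlap, and every PC3-shp14ARF library, treated or not, was below every PC3 library. The response of DUSP10 was 1.97-fold in PC3 cells (adjusted p = 4.81e-05) and 2.11-fold in PC3-shp14ARF cells (adjusted p = 0.000327). No difference between these responses was detected, with an interaction of 0.10 and a 95% confidence interval from −0.18 to 0.38.

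DUSP5 was at 103, 116 and 119 TPM in Ctrl and at 139.9, 145 and 151 TPM in MLN. It was at 57.8, 59.2 and 61.9 TPM in shARF and at 150.2, 151 and 154 TPM in Both. The shARF libraries were the lowest of the 12, and the MLN and Both libraries overlapped. DUSP5 rose 1.29-fold in PC3 cells (log2 fold change 0.37, adjusted p = 0.00425) and 2.54-fold in PC3-shp14ARF cells (log2 fold change 1.35, adjusted p = 3.17e-06). The interaction was 0.98 for DUSP5 (adjusted p = 8.54e-06).

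DUSP6 (MKP-3), the most abundant of the 10 transcripts with DMSO, was at 279, 282 and 312 TPM in Ctrl and at 227, 254 and 256 TPM in MLN. In shARF it was at 118 TPM in each library after rounding, and in Both at 238, 251 and 272 TPM. The MLN libraries were all below Ctrl, whereas the Both libraries were all above shARF and overlapped MLN. DUSP6 fell by 0.24 on the log2 scale in PC3 cells (SE 0.074, adjusted p = 0.0291) and rose by 1.10 in PC3-shp14ARF cells (SE 0.055, adjusted p = 2.16e-05). The small fall in PC3 cells lost its call without MLN library 1, MLN library 2, Ctrl library 1 or Ctrl library 3, with adjusted p-values of 0.0614, 0.0539, 0.0813 and 0.0592. The interaction of DUSP6 was the largest in size among the called ones of the 10 genes, at 1.34 (SE 0.097, adjusted p = 2.01e-06), and stayed between 1.29 and 1.39 with any library left out.

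DUSP4 (MKP-2) was at 141, 145 and 162 TPM in Ctrl and at 58.0, 66.5 and 67.2 TPM in MLN. It was at 56.6, 57.1 and 58.5 TPM in shARF and at 50.1, 54.0 and 54.2 TPM in Both. The Ctrl libraries stood alone, and the other 9 libraries lay within 50.1 to 67.2 TPM. DUSP4 fell 2.33-fold in PC3 cells (log2 fold change −1.22, adjusted p = 6.14e-05). In PC3-shp14ARF cells its log2 fold change was −0.12 (adjusted p = 0.0499), a call that did not hold without any 1 of the 6 libraries of these conditions (adjusted p 0.0545 to 0.127) or under median-of-ratios scaling (adjusted p = 0.48). The interaction of DUSP4 was 1.10 (adjusted p = 9.90e-06).

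The Sprouty and SPRED genes fell with MLN4924 in both lines, except SPRED2 in PC3 cells, which did not pass the test. SPRY2, which binds the ubiquitin ligase CBL and GRB2, was at 29.9, 34.5 and 37.9 TPM in Ctrl and at 14.1, 15.3 and 17.9 TPM in MLN, and at 26.1, 27.0 and 27.1 TPM in shARF and 14.0, 16.6 and 17.3 TPM in Both. The treated libraries of both lines overlapped, and all were below every untreated library. SPRY2 fell by 1.11 on the log2 scale in PC3 cells (adjusted p = 0.000456) and by 0.74 in PC3-shp14ARF cells (adjusted p = 0.000518). The interaction of SPRY2 was not past the threshold (0.36, adjusted p = 0.0992), but passed under median-of-ratios scaling (0.46, adjusted p = 0.0313) and without MLN library 2, Both library 2 or Ctrl library 2 (0.45 to 0.46, adjusted p 0.0441 to 0.0492).
SPRY4, another Sprouty inhibitor of receptor signalling, was at 77.8, 81.5 and 92.8 TPM in Ctrl and at 47.0, 51.8 and 52.8 TPM in MLN. It was at 95.6, 97.2 and 100.1 TPM in shARF and at 47.6, 48.4 and 52.1 TPM in Both, so that the treated libraries of the lines overlapped. SPRY4 fell by 0.73 on the log2 scale in PC3 cells (adjusted p = 0.000508) and by 0.98 in PC3-shp14ARF cells (adjusted p = 1.73e-05), and the interaction was −0.25 (adjusted p = 0.0811). The interaction of SPRY4 passed without MLN library 1 (−0.30, adjusted p = 0.0385) or Ctrl library 1 (−0.33, adjusted p = 0.0183). An antisense gene, SPRY4-AS1, overlaps SPRY4 and was between 1.72 and 2.83 TPM; whether reads were counted by strand is not given in the sources used here.
SPRED1 was at 55.6, 57.5 and 60.0 TPM in Ctrl and at 31.3, 32.5 and 34.1 TPM in MLN, and at 42.1, 43.5 and 45.6 TPM in shARF and 26.7, 26.9 and 29.6 TPM in Both. No conditions overlapped, and it fell by 0.82 on the log2 scale in PC3 cells (adjusted p = 5.4e-05) and by 0.66 in PC3-shp14ARF cells (adjusted p = 0.000171). Its interaction was 0.16 (adjusted p = 0.176) and passed under median-of-ratios scaling (0.26, adjusted p = 0.0147). SPRED2 was at 49.2, 54.0 and 56.8 TPM in Ctrl and at 43.9, 47.0 and 52.7 TPM in MLN, which overlap. It was at 66.8, 67.0 and 68.3 TPM in shARF, the highest of the 4 conditions, and at 40.5, 46.0 and 47.5 TPM in Both. For SPRED2 the log2 fold change was −0.16 in PC3 cells (adjusted p = 0.168, 95% confidence interval −0.37 to 0.057) and −0.60 in PC3-shp14ARF cells (adjusted p = 0.000453). The interaction of SPRED2 was −0.44 (adjusted p = 0.0127).
The median log2 fold change of these 4 genes was −0.78 in MLN vs Ctrl and −0.70 in Both vs shARF, beside 0.052 and −0.038 over all genes tested. For the 5 phosphatases the medians were 0.37 and 1.10.

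EGR1 was close to absent with DMSO, at 0, 0.0996 and 0.145 TPM in Ctrl and at 0, 0.0506 and 0.0990 TPM in shARF. It was at 9.01, 9.22 and 13.8 TPM in MLN and at 16.9, 18.6 and 23.0 TPM in Both. Every Both library was above every MLN library. EGR1 rose by 5.96 on the log2 scale in PC3 cells (SE 0.38, adjusted p = 5.23e-05) and by 7.08 in the PC3-shp14ARF line (SE 0.29, adjusted p = 1.06e-05). EGR1 passed the filter on low values only through the treated libraries, so the direction of both changes was fixed by the filter. These p-values are therefore no separate evidence of a rise, although every treated library was above every untreated one. Without the filter, EGR1 was still called in both comparisons, in the same direction. Since the DMSO values are below or near the pseudocount of 0.1 TPM, these sizes depend on it: in MLN vs Ctrl the log2 fold change of EGR1 was 3.41 with a pseudocount of 1 and 7.56 with 0.01. The interaction of EGR1 was 1.11 and not past the threshold (adjusted p = 0.108), while with a pseudocount of 1 it was 0.87 (adjusted p = 0.00927). EGR1 was at a lower level than DUSP1 in every library.

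Without the drug, PC3-shp14ARF cells had less of 4 of the 5 phosphatase transcripts than PC3 cells. In shARF vs Ctrl, 7 of the 10 genes passed (limma, adjusted p below 0.05), 6 lower and 1 higher, where 41.4% of all genes passed, 20.4% lower and 21.0% higher. No gene of the 10 passed the fold cutoff of 2, as did 3.19% of all genes, and 8 of the 10 had an unadjusted p below 0.05, as did 9865 of the 19932 genes tested. DUSP10 was 2.85-fold lower (adjusted p = 0.000268), DUSP4 2.59-fold lower (adjusted p = 0.000108), DUSP6 2.46-fold lower (adjusted p = 8.5e-05) and DUSP5 1.88-fold lower (adjusted p = 0.000508) in shARF. The libraries of the 2 conditions did not overlap for any of these 4 genes. Since the 4 are named for passing the test, this adds no separate support. The share of all genes without overlap was not counted. The median of the 5 phosphatases was −1.30 on the log2 scale, beside 0 over all genes tested. DUSP1 did not pass (log2 fold change 0.12, 95% confidence interval −0.18 to 0.42). SPRED1 was lower by a log2 fold change of −0.40 (adjusted p = 0.00189), and SPRED2 was higher by 0.34 (adjusted p = 0.00711). SPRY2 was lower (log2 fold change −0.34, adjusted p = 0.0323), a call lost without Ctrl library 1, Ctrl library 3 or any shARF library, with adjusted p between 0.0584 and 0.0976. SPRY4 had a log2 fold change of 0.22 that was not past the threshold (adjusted p = 0.059), and it passed without Ctrl library 1 (adjusted p = 0.00595). It also passed with the filter at 1 TPM (adjusted p = 0.0315), under median-of-ratios scaling (0.0348) and in the single fit of 12 libraries (0.0257). For EGR1, with values of at most 0.145 TPM in all 6 libraries, no difference was detectable. This comparison and MLN vs Ctrl use the same Ctrl libraries.

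With MLN4924 in both lines, DUSP1, DUSP4, DUSP10 and SPRED1 were lower and EGR1 was higher in PC3-shp14ARF cells. In Both vs MLN, 5 of the 10 genes passed (limma, adjusted p below 0.05), 4 lower and 1 higher, where 32.4% of all genes passed, 20.6% lower and 11.8% higher. No gene of the 10 passed the fold cutoff of 2, as did 2.41% of all genes, and 5 of the 10 had an unadjusted p below 0.05, as did 8763 of the 19932 genes tested. DUSP10 was still 2.65-fold lower (log2 fold change −1.41, adjusted p = 0.000428) and DUSP1 was 1.84-fold lower (log2 fold change −0.88, adjusted p = 0.000563) in Both. The log2 fold change was 0.064 for DUSP5 (95% confidence interval −0.051 to 0.18) and 0.047 for DUSP6 (−0.15 to 0.24). Under median-of-ratios scaling the difference in DUSP5 was 0.16 and passed (adjusted p = 0.0313), while DUSP4 (−0.18, adjusted p = 0.0563) and SPRED1 (−0.14, adjusted p = 0.0906) no longer passed. SPRY2, SPRY4 and SPRED2 did not pass, with log2 fold changes of 0.019, −0.033 and −0.10. DUSP4 (−0.27, adjusted p = 0.0348), SPRED1 (−0.23, adjusted p = 0.0352) and EGR1 (0.88, adjusted p = 0.0213) passed with small margins. DUSP4 lost its call without MLN library 2, MLN library 5 or any Both library (adjusted p up to 0.114). SPRED1 lost it without any MLN library or without Both library 2 or 4 (up to 0.113), and EGR1 without MLN library 1 or 2 or Both library 2 or 3 (up to 0.079). Only DUSP1 and DUSP10 kept their call in this comparison with each library left out in turn.

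**Figure D1:**
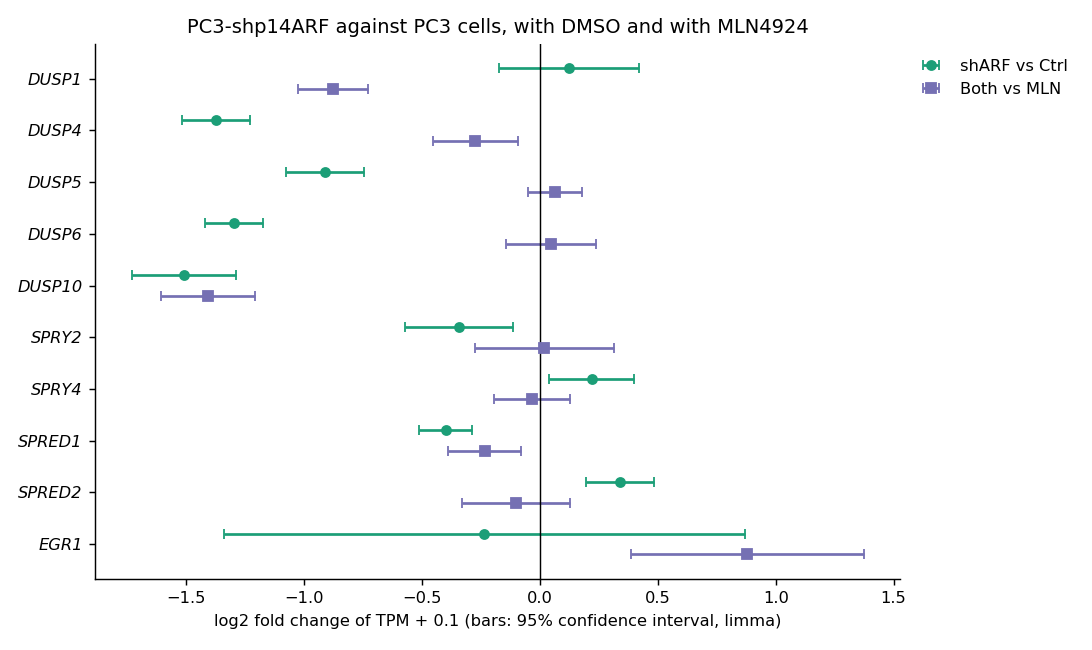
Log2 fold change of TPM + 0.1 (x axis) between PC3-shp14ARF and PC3 cells with its 95% confidence interval from limma, with DMSO (shARF vs Ctrl, circles) and with MLN4924 (Both vs MLN, squares). DUSP5 and DUSP6 lie below 0 with DMSO and have intervals across 0 with MLN4924, DUSP10 lies below −1 in both comparisons, and DUSP1 is below 0 with MLN4924 only.

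The responses of the lines to MLN4924 differed in 5 of the 10 genes by the interaction (limma, adjusted p below 0.05), 3 positive and 2 negative, where 28.3% of all genes passed, 11.2% positive and 17.1% negative. The count was 4 to 7 of the 10 under the alternatives. The fold cutoff of 2 was passed by no gene of the 10 and by 2.56% of all genes. The positive ones were DUSP4, DUSP5 and DUSP6, all 3 lower in shARF than in Ctrl, and the negative ones were DUSP1 and SPRED2. The interaction and shARF vs Ctrl use the same Ctrl and shARF libraries. A low level in shARF by itself makes the interaction more positive, and this agreement was not tested. The calls of DUSP1, DUSP4, DUSP5 and DUSP6 held under all 18 alternative settings run for each.

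The makeup of the phosphatase pool changed with the drug. The TPM of the 5 phosphatases summed to 574 ± 36.4 in Ctrl and 861 ± 47.9 in MLN, and to 253 ± 4.99 in shARF and 677 ± 21.5 in Both. DUSP6 made up 50.7% ± 0.734 of this sum in Ctrl and 46.7% ± 0.932 in shARF, and DUSP1 only 2.43% ± 0.215 and 6.01% ± 0.722. With MLN4924 DUSP1 made up 45.5% ± 0.329 in MLN and 31.5% ± 0.980 in Both. Without DUSP1, the sum of the other phosphatases was 559.7 ± 36.2 TPM in Ctrl and 469 ± 26.6 in MLN, against 238 ± 2.88 in shARF and 464 ± 20.3 in Both. The libraries of MLN and Both overlapped in this sum, and those of shARF lay far below. The 4 Sprouty and SPRED genes summed to 229 ± 14.1 TPM in Ctrl and 235 ± 5.25 in shARF, and to 147 ± 8.11 in MLN and 138 ± 5.13 in Both. The ratio of the phosphatase sum to the Sprouty and SPRED sum was 2.50 ± 0.0161 in Ctrl and 5.86 ± 0.0353 in MLN, compared with 1.07 ± 0.0345 in shARF and 4.92 ± 0.0280 in Both, with no overlap between conditions. These sums are descriptions, and no test was run on them.

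By level per transcript length, the order in Ctrl was DUSP6, DUSP4, DUSP5, SPRY4, SPRED1, SPRED2, SPRY2, DUSP1, DUSP10 and EGR1, and only SPRED1 and SPRED2 overlapped as neighbours. In MLN DUSP1 was the highest, followed by DUSP6, DUSP5 and DUSP4, and the overlapping neighbours were SPRY4 with SPRED2 and SPRY2 with DUSP10. In shARF DUSP6, SPRY4 and SPRED2 were the highest, and DUSP5 and DUSP4 overlapped. In Both DUSP6 was again the highest, followed by DUSP1 and DUSP5, and DUSP4 overlapped with SPRY4 and EGR1 with SPRY2.

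Over the 12 libraries, log2(TPM + 0.1) of SPRY2 and SPRED1 had a Pearson r of 0.948 and that of EGR1 and DUSP1 one of 0.965, while SPRY4 ran against DUSP1 (r = −0.951) and EGR1 (r = −0.965). DUSP5 and DUSP6 had r = 0.877, and DUSP4 was weakly related to DUSP5 (r = 0.0389). These are descriptions over 12 libraries that share 4 conditions, and they mostly follow the differences between conditions. EGR1 passed the filter on low values only through the treated libraries, so its correlations largely restate its rise with the drug. Among 14653 other genes whose mean reached 1 TPM, those most alike to DUSP6 were ETS1 (r = 0.994), with means of 67.2 and 57.0 TPM in Ctrl and MLN and 24.5 and 54.8 TPM in shARF and Both, and CXCL1 (r = 0.989), at 1266, 758, 7.68 and 822 TPM in that order. Those most alike to DUSP4 were ANPEP (r = 0.992) and LIF (r = 0.990), which was at 353, 90.8, 62.8 and 67.3 TPM. For DUSP5 they were AOX1 (r = 0.991) and OSCAR (r = 0.990), and for DUSP10 they were RAB3B (r = 0.996) and SYNGR3 (r = 0.991). GAST, the gastrin gene, followed DUSP1 with r = 0.998, and AL033397.2 did so with r = 0.999. GAST was listed at 0 in every DMSO library and had a mean of 114 TPM in MLN and 37.1 in Both. AL033397.2 likewise had a mean of 0 in Ctrl and in shARF. These genes reached a mean of 1 TPM only through the treated libraries, so their correlations with DUSP1 largely restate a rise with the drug. EGR1 was most alike to FCRLB (r = 0.995) and FAM234B (r = 0.994), SPRY4 to NOS1 and ZYX (both r = 0.995), SPRY2 to L3MBTL3 (r = 0.986) and GOLGA5 (r = 0.983), SPRED1 to RIN2 (r = 0.994) and ADD3 (r = 0.993), and SPRED2 to RNF157 (r = 0.991) and UBAP2L (r = 0.979).

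Other genes of the pathway were read from lists, whose counts stand beside the shares of all genes that passed: 32.2% higher and 29.4% lower in MLN vs Ctrl, and 28.3% and 32.8% in Both vs shARF. Of 5 other MAPK phosphatases, 1 was higher and 2 were lower in MLN vs Ctrl, and 2 were higher and 3 lower in Both vs shARF (limma, adjusted p below 0.05). DUSP8, which acts on JNK and p38, rose by 1.43 in PC3 and 1.39 in PC3-shp14ARF cells on the log2 scale, and DUSP2 fell by 0.63 and by 1.73. In shARF vs Ctrl 1 of these 5 genes was higher and 2 were lower, where 21.0% of all genes were higher and 20.4% lower. The higher one was DUSP2, at 4.47 ± 0.359 TPM in Ctrl and 11.2 ± 1.95 TPM in shARF (log2 fold change 1.29, limma, adjusted p = 0.00229). DUSP7, close to DUSP6, fell by 0.54 and 0.63 on the log2 scale (adjusted p = 0.00416 and 0.000507). Of 9 other Sprouty and SPRED genes and their partners, 4 were higher and 4 lower in MLN vs Ctrl and 3 and 3 in Both vs shARF. SPRY1 was at 75.3 ± 3.31 TPM in Ctrl and 36.6 ± 3.76 in MLN, and at 50.4 ± 0.911 in shARF and 30.4 ± 1.66 in Both, and it fell in each line (adjusted p = 0.000119 and 6.29e-05). SPRED3 went the other way, from 5.94 ± 1.0005 to 11.3 ± 1.28 TPM with the drug in PC3 cells and from 2.72 ± 0.215 to 10.5 ± 0.809 TPM in the PC3-shp14ARF line (adjusted p = 0.00203 and 2.46e-05). NF1, the gene of neurofibromin, fell by 1.42 and by 0.95 on the log2 scale.
Of 10 other ERK-responsive genes, 1 was higher and 6 lower in MLN vs Ctrl, and 5 were higher and 4 lower in Both vs shARF. CCND1, which encodes cyclin D1, was at 308 ± 26.9 TPM in Ctrl and 40.4 ± 0.336 in MLN, and at 317 ± 14.4 in shARF and 40.0 ± 0.491 in Both. ETV1, an ETS factor, fell by 1.55 and 1.29 and PHLDA1 by 1.01 and 0.79 on the log2 scale in the 2 lines. In shARF vs Ctrl, 7 of these 10 genes were lower and 1 was higher, where 20.4% of all genes were lower and 21.0% higher. By the interaction 5 were positive and 1 negative, where 11.2% of all genes were positive and 17.1% negative. The median interaction of this list was 0.43, beside −0.085 over all genes.
The list of the EGR family and the NAB corepressors that bind it held 5 genes tested. Of these, EGR3 (means of 0.105, 0.431, 0.0325 and 0.0306 TPM in Ctrl, MLN, shARF and Both) and EGR4 (0, 0.294, 0.0221 and 0.0836 TPM) passed the filter on low values only through MLN, so their being higher in MLN was fixed by the filter. These genes are named for that reason, after their values were seen. EGR2 was at 3.80 ± 0.528 TPM in Ctrl and 17.7 ± 1.52 in MLN, against 1.11 ± 0.248 in shARF and 10.9 ± 0.861 in Both, and rose by 2.20 and by 3.20 on the log2 scale (adjusted p = 3.23e-05 and 3.02e-05). Unlike EGR1, EGR2 was lower in Both than in MLN (log2 fold change −0.70, adjusted p = 0.00381). NAB1 fell by 0.94 and by 0.43 on the log2 scale, and NAB2 rose by 0.35 in PC3 cells (adjusted p = 0.0174) and had a log2 fold change of −0.15 in PC3-shp14ARF cells (adjusted p = 0.125).
Of the 11 genes of the RAS-RAF-MEK-ERK core, 3 were higher and 5 lower in MLN vs Ctrl, with a median log2 fold change of −0.12, and the largest changes were those of BRAF (−0.70), MAP2K2 (−0.64) and ARAF (0.46). In Both vs MLN 1 of the 11 core genes passed, lower in Both, where 20.6% of all genes were lower. Of 10 p38 and JNK kinase genes tested, 3 were higher and 5 lower in MLN vs Ctrl. MAP2K6, a p38 activator, fell from 8.44 ± 0.717 TPM to 1.001 ± 0.211 in PC3 cells and from 8.84 ± 0.534 to 0.640 ± 0.104 in PC3-shp14ARF cells (adjusted p = 3.78e-05 and 1.04e-05). MAPK11, a p38 kinase, rose by 1.38 and 1.46, and MAP2K3 fell by 1.14 and 1.36 on the log2 scale.

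**Figure D2:**
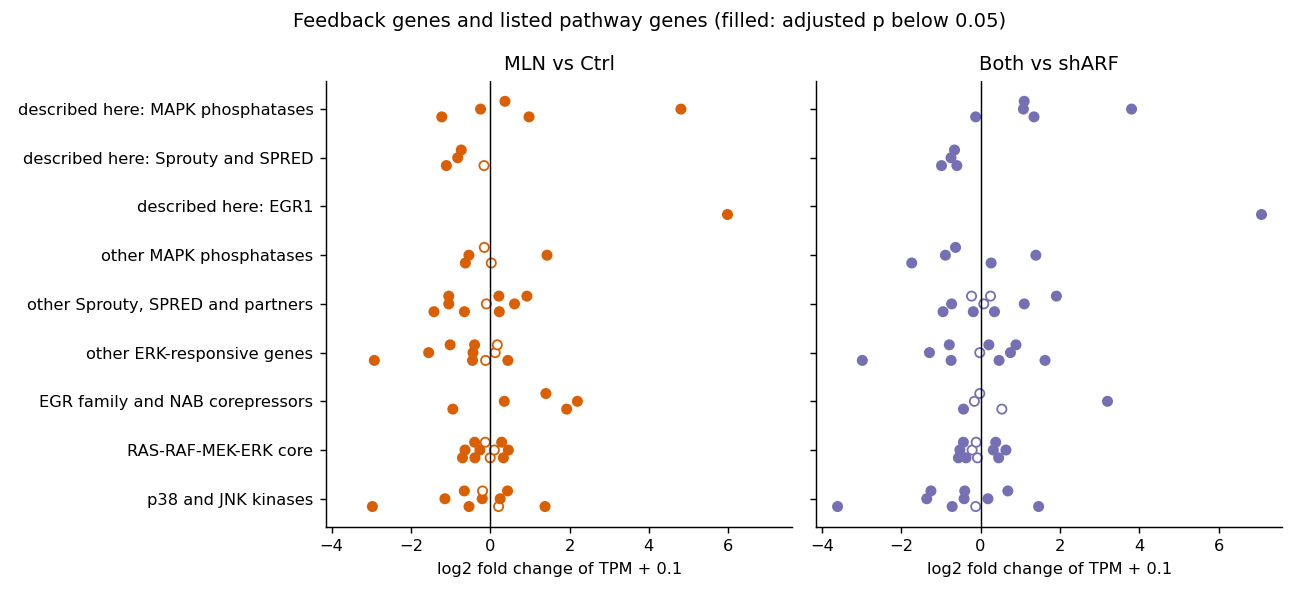
Log2 fold change of TPM + 0.1 (x axis) of the 10 genes described here and of the listed pathway genes, by list, in MLN vs Ctrl (left) and Both vs shARF (right), with filled circles for an adjusted p below 0.05 by limma. DUSP1 and EGR1 lie farthest to the right in each panel, and the 11 core kinase and RAS genes lie within 0.70 of 0.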

How the data were processed

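RNA-seq was measured in 12 libraries, 3 for each of 4 conditions. Adapters were trimmed, and reads mapped to hg38 and assigned to an Ensembl GRCh38 annotation, by the authors in Qiagen CLC Genomics Workbench. The authors deposited TPM for each library, each column summing to 1000000. TPM carries no depth, so the precision of counting is not known from it. Read counts supplied with the paper were at hand only in shortened form and were not used. Read layout and strand are not given in the sources used here. Columns were matched to conditions by the line and treatment in their names.

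Genes averaging at least 0.1 TPM over the 12 libraries, 19932 in number, were tested as log2(TPM + 0.1) by limma 3.58.1 (R 4.3.3; lmFit, then eBayes with a trend). P-values were adjusted by the Benjamini-Hochberg method across these genes. Pairwise comparisons used the 6 libraries of their 2 conditions, and the interaction used all 12. The threshold was an adjusted p of 0.05, and the study's fold cutoff of 2 on the log2 scale was a second call. The fits were tested on simulated data. No pair of libraries was identical. Alternatives were pseudocounts of 1 and 0.01, filtering at 1 TPM or not at all, scaling by median of ratios, a single fit of the 12 libraries, a replicate block, and leaving out each library.

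All 10 genes were named. In each pathway list, up to 3 genes with the largest change in MLN vs Ctrl and averaging 1 TPM or more were named, and for each of the 10 genes the 2 genes with the highest Pearson r. Members and lists were chosen with earlier results of these data known. Gene coordinates are from GENCODE 44 (GRCh38) and promoters from RefSeq (GRCh38.p14). Results for some marker genes are not reported here.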

Additional observations from a re-analysis of the deposited data

Results flagged for a closer look

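The response to MLN4924 differed between PC3-shp14ARF and PC3 cells, by the test of that difference over 12 libraries (limma, adjusted p below 0.05), in 5 of the 10 genes and in 28.3% of all genes. The count was 4 of the 10 with a replicate block and 7 under median-of-ratios scaling or without Ctrl library 2. The interaction was −0.9998 for DUSP1, which rose in both lines and less in PC3-shp14ARF cells. It was 1.10 for DUSP4, 0.98 for DUSP5 and 1.34 for DUSP6, which were lower in shARF than in Ctrl, as was DUSP10, whose interaction was 0.10 and not past the threshold (adjusted p = 0.605). The interaction and shARF vs Ctrl share the Ctrl and shARF libraries, so they are not separate observations. DUSP5 and DUSP6 had overlapping levels in Both and MLN, and DUSP4 did not (52.7 ± 2.30 in Both and 63.9 ± 5.11 TPM in MLN, SD, n = 3 libraries). The interaction was −0.44 for SPRED2, whose level was highest in shARF, and the call of SPRED2 was lost with a replicate block (adjusted p = 0.188). Single outlying libraries were not tested for, and each library was left out in turn instead.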

How the results depend on the processing

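Of 680 values of the 10 genes under alternatives, 604 kept their direction and side of the threshold, 52 lost and 14 gained a call, and 10 changed sign, none of which was called in the main fit. The latter were DUSP1 (−0.042 with a replicate block) and EGR1 (between −0.62 and 0.029 with a library left out) in shARF vs Ctrl, SPRY4 (0.059 under median-of-ratios scaling), DUSP6 (−0.0099 to 0.093) and SPRY2 (−0.059 to 0.11) with a library left out in Both vs MLN, and the interaction of DUSP10 (−0.029 at a pseudocount of 1). By leaving out single libraries, DUSP6 in Both vs MLN reached −0.0099 and −0.0054, SPRY2 −0.059, −0.04 and −0.012, and EGR1 in shARF vs Ctrl 0.028 and 0.029.
In Both vs MLN 3 of the 10 genes were called without the filter and 2 to 3 with a library left out, against 5, and the count over all genes was 4005 (without MLN library 2) to 5731, and 4199 without Both library 2, against 6464; the cause was not tested. At the fold cutoff, all genes called numbered 702 at a pseudocount of 1 and 1188 at a filter of 1 TPM in MLN vs Ctrl (1880 in the main fit), 222 and 423 in shARF vs Ctrl (636), 712 and 1210 in Both vs shARF (1832), 78 and 265 in Both vs MLN (480), and 121 and 260 in the interaction (511). The 1 TPM filter tests fewer genes.
The deviations of 10 same-numbered pairs from their condition means correlated between −0.147 and 0.063, none above 0.1. Such low correlations do not settle whether libraries were paired by the numbers in the column names. With these numbers as a replicate block, which left 1 residual degree of freedom in a pairwise fit, all genes called were 5708 in MLN vs Ctrl (12283 without the block), where 6 of the 10 genes were called (9 without it) and DUSP5 (adjusted p = 0.126), DUSP6 (0.213) and SPRY2 (0.0546) were not, 3105 in the interaction (5645), and 0 in shARF vs Ctrl, where 0 of the 10 genes were called and 0 genes at the fold cutoff (limma), with 7757 genes and 7 of the 10 at an unadjusted p below 0.05. The log2 fold changes there were −1.43 for DUSP4, −1.004 for DUSP5, −1.33 for DUSP6 and −1.48 for DUSP10, with adjusted p from 0.0607 to 0.0625. Both vs shARF and Both vs MLN share only 1 number each, so no block was fitted there. Depth, and with it counting error at low TPM such as EGR1 with DMSO, is not known from TPM.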
